A study of Mus musculus with 32 samples.

Results

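Olfactory receptor genes, which carry symbols beginning with Olfr, encode the odorant receptors of the main olfactory epithelium. The data describe those of them that were detected in the vomeronasal organ (VNO), the organ in which mice sense pheromones. Of the 1419 Olfr genes in the deposited tables, 88 (6.20%) had a mean normalized count of 5 or more over the 8 libraries of at least 1 strain, and these 88 are described here. They are 88 of 49671 genes in all. The members were chosen by that mean, so the number of members and their presence in a strain are descriptions and were not tested. RNA was taken from the VNO epithelium of 32 individual mice aged 42 days, with 4 males and 4 females of each of the inbred strains C57/BL6 (B6), 129S6/SVEV (129), SJL/J (SJL) and SWR/J (SWR). The labels name no transgene and no treatment. A normalized count is the number of reads on a gene divided by the size factor of its library, so it depends on transcript length.

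Most mature olfactory neurons express a single odorant receptor gene from a large repertoire, and the receptor acts through the G protein Gnal (Golf), the cyclase Adcy3 and the cyclic nucleotide gated channel with the subunit Cnga2. Vomeronasal neurons instead use V1r, V2r or formyl peptide receptors, the G proteins Gnai2 or Gnao1 and the channel Trpc2. Odorant receptors fall into class I, whose genes lie in a cluster on chromosome 7, and class II, which is spread over many chromosomes. A few odorant receptors are known from outside the nose, among them Olfr78, a class I receptor described in kidney and carotid body.

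Libraries held 5106398 to 18640871 reads on genes (median 11461344), and 1 read in the shallowest weighs more than in the others. Markers of vomeronasal neurons were high in every library, with Omp at 14488 to 23292, Gnai2 at 5397 to 9971, Gnao1 at 1151 to 2273 and Vmn2r1 at 2056 to 4501 normalized counts. Xntrpc, the entry taken here for Trpc2, ranged from 670 to 1425, and how Trpc2 reads were assigned to it was not tested. Of the 10 listed markers of olfactory neurons of the main epithelium, Cnga2, Gnal and Stoml3 were low in nearly all libraries, at medians of 2.15, 21.8 and 10.1. The other 7 were at 439 (Cnga4) or more in every library, so the summed list (13909 to 22277) does not separate the tissues. B6 female replicate 1 had the highest summed smooth muscle markers (10095, median of all libraries 2126) and 129 male replicate 1 the highest summed markers of ciliated respiratory cells (4305, median 424). In whole tissue, fewer cells of a type and less RNA per cell cannot be told apart.

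Coding sequence of leading members is shown to let the receptors be told apart. The stretches of 45 bases below, read from GENCODE transcripts on GRCm38, lie around the codons of the motif DRY or DRF at the end of the third membrane segment, a signature of odorant receptors, and the capitals mark those 3 codons. They are the class I members Olfr78 (chr7:102742618-102742662, minus strand), Olfr556 (chr7:102670276-102670320, plus strand) and Olfr655 (chr7:104596793-104596837, minus strand), and the class II members Olfr1512 (chr14:52372662-52372706, minus strand), Olfr125 (chr17:37835334-37835378, plus strand) and Olfr124 (chr17:37805489-37805533, plus strand).
Olfr78: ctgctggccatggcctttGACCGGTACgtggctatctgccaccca
Olfr556: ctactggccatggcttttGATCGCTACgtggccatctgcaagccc
Olfr655: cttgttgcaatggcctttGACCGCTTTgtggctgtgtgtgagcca
Olfr1512: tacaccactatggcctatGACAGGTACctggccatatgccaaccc
Olfr125: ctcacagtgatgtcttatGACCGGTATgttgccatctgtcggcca
Olfr124: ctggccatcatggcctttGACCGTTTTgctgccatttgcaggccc

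Between these stretches, 24 of 45 bases (Olfr655 and Olfr1512) to 37 of 45 bases (Olfr78 and Olfr556) were identical. Over whole transcripts, 67 of the 88 members shared no window as long as a read with a transcript of any other gene, and 3 shared over 10% of their windows. The largest share was 34.6% for Olfr290, with the gene Gm18560 holding most of them, followed by 12.4% for Olfr78, whose annotation overlaps that of Olfr560 on the same strand. Windows were matched on both strands, and Gm18560 overlaps Olfr290 on the opposite strand, while reads were counted by strand. How far the shared windows affect the values of Olfr290 and Olfr78 was not tested. Reads of all strains were placed on the reference genome, which is that of B6, and the part of sequence differences between strains in the counts was not tested.

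Of the 88 members, 84 are annotated as protein coding. By chromosome, 25 lie on chromosome 7, 13 on 11, 9 on 14, and 7 each on 2 and 9, whereas chromosome 2 holds the most Olfr genes of all (369 of 1411 placed). A stretch of whole Mb of chromosome 7 around the class I cluster holds 13 members (14.8%) and 194 (13.7%) of all placed Olfr genes. The 13 members reach from Olfr556 (start 102664899) to Olfr2 (end 107006072). They gave 24.1% of the summed level of the members, and 4 of them (Olfr78, Olfr556, Olfr692 and Olfr655) are among the 10 highest. The stretch was set by position alone and can also hold class II genes, so these shares are not those of class I.

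The 5 highest members gave 29.0% and the 10 highest 42.2% of the summed level, while 45 members had a mean under 5 over all 32 libraries. Pooled over the 32 libraries, the members together gave 49.9% of the level of all Olfr genes, but this share varied widely by library. In B6 female replicate 2 the members summed to 1081 and the other Olfr genes to 3584. In 129 female replicate 2 the sums were 640 and 177. Only Olfr78 and Olfr556 had a mean of 50 or more. A read of the gene was found in all 32 libraries for 19 members. In the plot of all members by library, the upper rows are filled in every strain, and most of the lowest rows are filled in B6 and nearly empty in 129. By library, 11 members had their highest value in B6 female replicate 2, 10 in SJL male replicate 1 and 9 in B6 male replicate 3.

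**Figure D1:**
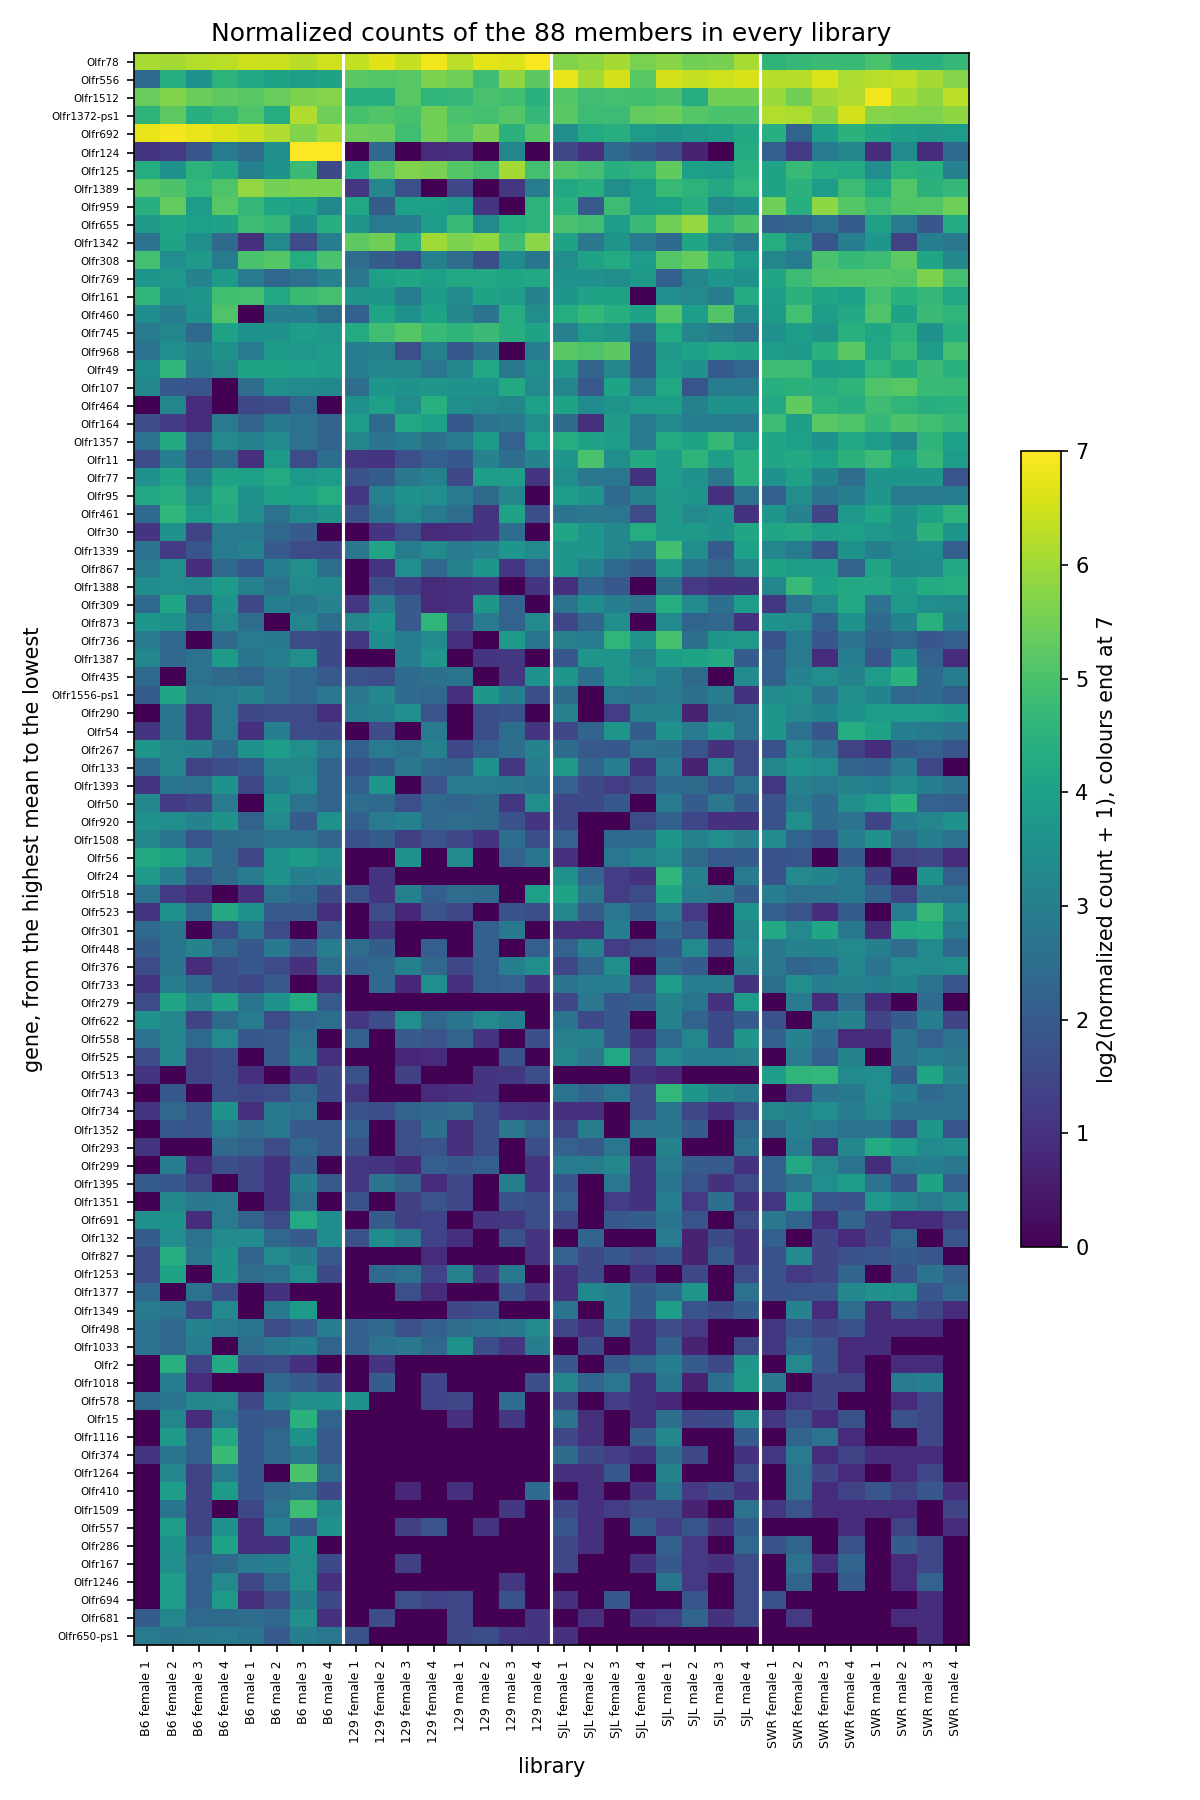
Each row is 1 of the 88 members, ordered by mean, and each column 1 of the 32 libraries, with colour giving log2(normalized count + 1). The top rows are bright in all strains, and the lowest rows are dark in most 129 libraries.

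Membership differed in number between strains. The limit was reached by 58 members in B6, 54 in SWR, 44 in SJL and 29 in 129. It was reached in all 4 strains by 19 members, in 3 by 12, in 2 by 16 and in 1 strain by 41. Of those 41, 24 reached it in B6, 11 in SWR, 5 in SJL and 1 in 129. The B6 count moved with B6 female replicates 2 and 4, which had the highest background on gene families of other tissues (39.3 and 40.3 reads scaled to library size, RPM, at most 19.1 elsewhere) and the highest level of the other Olfr genes. Without both, an alternative chosen after seeing the data, 44 genes reached the limit in B6, 11 of them only there, and 13 of the 24 left the list, among them Olfr1116, Olfr374 and Olfr286. The part of the background in this count was not tested. The lowest strain mean was that of 129 for 46 members. Olfr279, Olfr1116, Olfr374, Olfr1264 and Olfr286 had no read in any of the 8 libraries of 129, and no member lacked reads in the whole of another strain. All of these but Olfr279 reached the limit only in B6, so the rule favoured low values elsewhere. The Olfr genes under the limit were also low in 129. Per library, 86 to 171 of them had a read in 129, 170 to 919 in B6, 174 to 678 in SWR and 216 to 882 in SJL. Low values in 129 are thus not particular to the members.

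The summed level of the 88 members was 650 to 1477 normalized counts in B6 (median 870), at most 755 in 129 (median 634), 528 to 1071 in SJL (median 764) and 832 to 1024 in SWR (median 984). The highest B6 sum was that of B6 male replicate 3, where Olfr124 alone had 517. Next in B6 came female replicates 2 and 4, the libraries with the highest background, at 1081 and 1009. The 19 members at the limit in every strain gave 54.4% of the summed level of the 88. Their own sum averaged 437 ± 44.3 (SD, n = 8) in B6, 445 ± 49.1 in 129, 492 ± 37.1 in SWR and 404 ± 59.3 in SJL.

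Members near the limit differ little from genes just under it. Just inside it, Olfr681 had a highest strain mean of 5.0, Olfr1033 of 5.023 and Olfr498 of 5.137. Just outside it were Olfr273 at 4.998, Olfr1336 at 4.961 and Olfr522 at 4.848. Olfr116 was no member, with means of 3.58 in B6, 2.93 in 129, 3.63 in SWR and 2.06 in SJL, and it had a read in 6 of the 8 libraries of 129.

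The summed level of the Olfr genes under the limit, per kb of exon, averaged 0.440 in B6, 0.0592 in 129, 0.214 in SWR and 0.218 in SJL, and it ranged from 0.0490 to 1.01 over the libraries. On that same scale, 15 members lay above it in all 32 libraries, an order that the limit itself largely fixes. Olfr692 averaged 77.7 normalized counts per kb in B6 and 32.5 in 129, Olfr1512 20.7 and 12.2, and Olfr78 12.9 and 16.1. Within strains, after each strain's own level was taken out, the Spearman correlation of a member with the other Olfr genes over the 32 libraries, which differ in depth, had a median of 0.11 for the 19 members at the limit in every strain, 0.41 for the 24 at the limit only in B6 and 0.26 for the 17 at the limit only in another strain. The members at the limit only in B6 or only in another strain entered through that strain's mean. Libraries high in the other Olfr genes can raise that mean, so the higher medians cannot be told apart from this choice. The background of each library, in the same RPM, was 3.43 to 40.3 in B6, 0.766 to 12.8 in 129, 3.05 to 19.1 in SWR and 3.18 to 13.3 in SJL. Its part in the membership of the low genes was not tested.

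The 10 highest members show the strain patterns. Olfr78 (chromosome 7, 102738511 to 102759471) had a lowest, median and highest count of 65.2, 75.9 and 89.6 in B6, and of 76.7, 99.5 and 121 in 129. In SJL they were 44.4, 51.5 and 66.8, and in SWR 20.7, 24.3 and 31.0. Every library of SWR lay below every library of the other strains.

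Olfr556, its class I neighbour on chromosome 7 (102664899 to 102673270), was lowest in B6. It had 4.26, 15.3 and 21.9 in B6 and 27.3, 36.3 and 56.0 in 129. In SJL it had 35.8, 90.5 and 110, and in SWR 50.8, 74.7 and 97.3. All B6 libraries lay below all others.

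Olfr692 (chromosome 7, 105368230 to 105369355), a class I receptor that has been described in vomeronasal neurons responding to pups, was highest in B6. Its lowest, median and highest counts were 49.7, 92.7 and 119 in B6 and 21.4, 38.1 and 45.9 in 129. They were 9.99, 13.7 and 19.9 in SJL and 3.81, 14.1 and 21.6 in SWR. The B6 libraries did not overlap those of any other strain.

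Olfr1512 on chromosome 14 had 35.4, 40.8 and 51.5 in B6, 19.8, 23.7 and 35.2 in 129, 19.4, 30.8 and 44.9 in SJL, and 44.4, 66.0 and 115 in SWR. The pseudogene Olfr1372-ps1 on chromosome 11 averaged 33.8 ± 17.3 (SD, n = 8) in B6, 32.0 ± 5.56 in 129, 61.7 ± 14.7 in SWR and 33.5 ± 5.32 in SJL. Olfr125 on chromosome 17 averaged 38.4 ± 14.6 in 129 and 14.6 ± 8.12 in B6, with 17.2 ± 6.02 in SWR and 24 ± 8.82 in SJL. Olfr959 averaged 36.2 ± 10.7 in SWR and 10.7 ± 8.25 in 129. Both are class II odorant receptor genes. Olfr655, a class I gene, was highest in SJL (32.0 ± 13.7) and lowest in SWR (7.30 ± 6.08). Olfr1342 on chromosome 4 averaged 43.5 ± 14.8 in 129, with a lowest library of 19.5, and 6.75 ± 4.69 in B6, 8.11 ± 5.52 in SWR and 9.32 ± 4.58 in SJL. The lowest 129 library was above the highest of the other strains (19, in SWR).

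**Figure D2:**
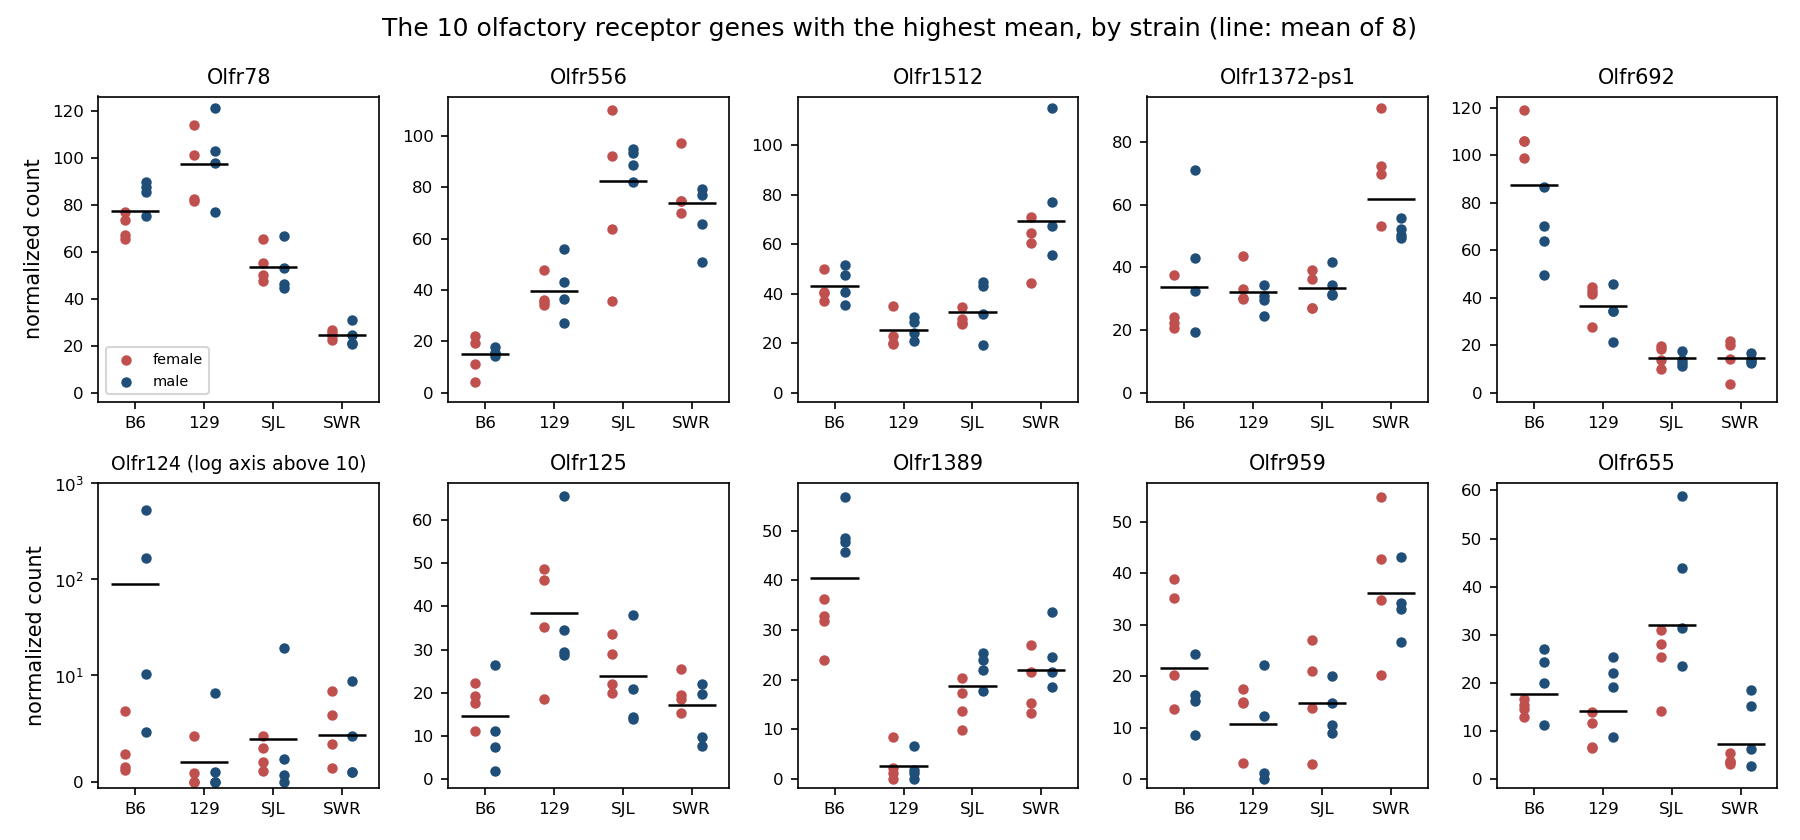
Normalized counts of the 10 members with the highest mean, 1 panel a gene, with strains on the x axis, a point for each library (red females, blue males) and a line at the mean of 8. Olfr78 is lowest in SWR (20.7 to 31.0), Olfr692 is highest in B6 (49.7 to 119), and the Olfr124 panel has a log axis above 10.

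Strain differences were tested in the 19 members that reached the limit in every strain, since the limit did not require these genes to differ. A gene was called when its absolute log2 fold change (LFC) exceeded 1 with a Benjamini-Hochberg adjusted p (FDR) under 0.05 in edgeR's quasi-likelihood test, over all 18382 genes tested. Of the 19, 17 were called in at least 1 of the 6 pairs of strains, where 19.8% of all genes tested were called. The other 2 were Olfr1372-ps1 and Olfr461. Counts per pair were 7 for B6 minus 129 (background 11.1%), 6 for SJL minus 129 (8.38%), 9 for SWR minus 129 (7.73%), 5 for SJL minus B6 (7.99%), 9 for SWR minus B6 (8.05%) and 7 for SWR minus SJL (4.50%). Directions were mixed. Of the 7 genes called for B6 minus 129, 3 were higher in B6, and of the 9 called for SWR minus 129, 5 were higher in SWR. The median LFC over the 19 was 0.08, 0.07, 0.89, -0.09, 0.64 and 0.03 in the same order, while the median over all genes was between -0.02 and 0.02.

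Olfr1342 had the largest difference, with an LFC of -2.69 ± 0.37 (SE) for B6 minus 129 (edgeR FDR 2.71e-07). Olfr692 fell by 2.56 from B6 to SJL (SE 0.20, edgeR FDR 7.01e-13), while between SJL and SWR its LFC was 0.03. Olfr556 rose by 2.51 from B6 to SJL (SE 0.21, edgeR FDR 8.03e-12). For SWR minus SJL its LFC was -0.17 (edgeR FDR 0.506). Olfr78 changed by -1.99 ± 0.12 for SWR minus 129 (edgeR FDR 5.25e-16). Olfr655 had -2.17 ± 0.29 for SWR minus SJL. Among class II genes, Olfr107 and Olfr769 were called higher in SWR than in each of the other 3 strains, with LFCs of 2.04 ± 0.32 and 1.96 ± 0.24 against B6. Olfr959 was higher in SWR than in 129 by 1.73 ± 0.38 and Olfr1512 by 1.43 ± 0.16. Olfr49 was higher in SWR than in SJL by 1.46 ± 0.28. The map of strain differences shows no strain in which all 19 genes were higher.

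**Figure D3:**
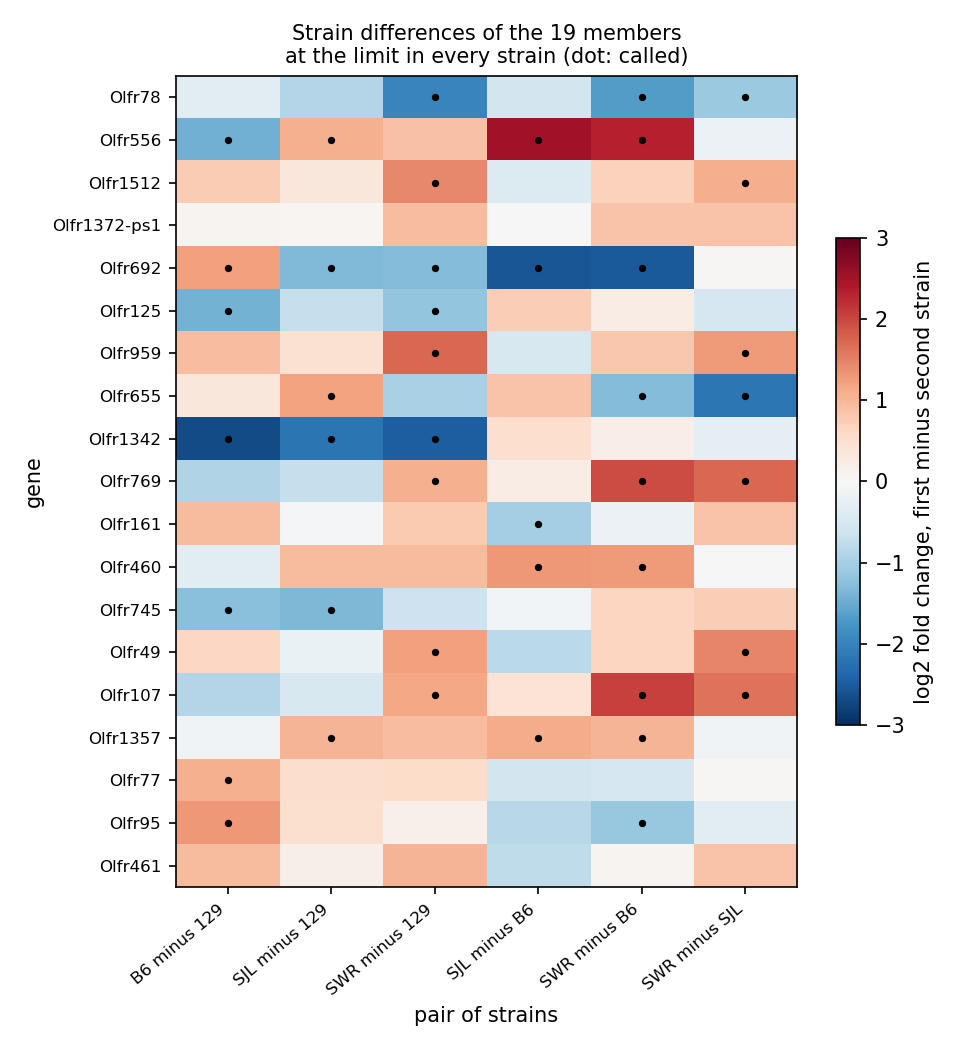
LFC of the 19 members at the limit in every strain (rows) for the 6 pairs of strains (columns), red where the strain named first was higher, with a dot where the gene was called. Olfr692 and Olfr556 have opposite colours in the pairs with B6, and Olfr1342 is called in the 3 pairs with 129.

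Among members at the limit in only some strains, the rule itself used the strain means, so only values are given. Olfr1389 on chromosome 11 averaged 40.5 ± 10.9 (SD, n = 8) in B6, 18.8 ± 5.22 in SJL, 22.0 ± 6.56 in SWR and 2.71 ± 3.15 in 129. Its neighbour Olfr1388 averaged 17 ± 4.98 in SWR, 9.01 ± 2.28 in B6, 1.98 ± 1.71 in SJL and 0.949 ± 0.714 in 129. The SWR libraries of Olfr164 lay between 14.0 and 36.3, and those of B6 between 0.853 and 6.58. Olfr464 had 17.8 to 38.1 in SWR and 0 to 8.33 in B6.

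Other members of that kind had the following means. Olfr308 averaged 4.93 in 129 and 20.0 to 21.6 in the other strains. Olfr968 averaged 4.88 in 129, 9.87 in B6, 21.3 in SWR and 21.4 in SJL. Olfr11 and Olfr30 averaged 17.7 and 13.5 in SJL and 18.8 and 15.0 in SWR, against 4.62 and 4.26 in B6 and 3.84 and 1.37 in 129. Olfr513 averaged 13.4 ± 7.33 in SWR, where its libraries lay between 3.14 and 23.9, and its highest library in the other strains was 2.33. Olfr279, with no read in 129, had 2.13 to 18.3 in B6, 0 to 6.34 in SWR and 0.985 to 13.6 in SJL.

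For 6 of the 69 members with a RefSeq window at the gene start (GRCm38.p6), the RefSeq start lay within 50 bases of the start in GENCODE. The 250 bases before the start are shown for Olfr1357, which was called between strains, and for Olfr374 and Olfr286, which had no read in 129. Capitals mark TAATTA, a homeodomain type motif, and CCCNNGGG, the core of the motif bound by Ebf proteins, both searched on either strand and not overlapping each other here. Of all 32851 RefSeq windows of that length, 4.84% hold TAATTA and 11.8% hold CCCNNGGG, and of the 948 Olfr windows 18% and 2.74% do. The windows lie at chr10:78618075-78618324 (minus strand), chr8:72106790-72107039 (plus strand) and chr15:98234451-98234700 (minus strand).
Olfr1357: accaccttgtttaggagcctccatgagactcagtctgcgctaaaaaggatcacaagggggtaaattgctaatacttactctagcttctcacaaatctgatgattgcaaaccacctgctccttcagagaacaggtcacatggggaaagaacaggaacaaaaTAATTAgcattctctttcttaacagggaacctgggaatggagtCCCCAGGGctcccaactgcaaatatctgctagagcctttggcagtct
Olfr374: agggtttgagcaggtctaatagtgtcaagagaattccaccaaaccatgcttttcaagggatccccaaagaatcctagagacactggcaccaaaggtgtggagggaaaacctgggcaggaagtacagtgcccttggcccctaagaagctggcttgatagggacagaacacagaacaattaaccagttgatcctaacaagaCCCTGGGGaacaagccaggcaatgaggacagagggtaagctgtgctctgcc
Olfr286: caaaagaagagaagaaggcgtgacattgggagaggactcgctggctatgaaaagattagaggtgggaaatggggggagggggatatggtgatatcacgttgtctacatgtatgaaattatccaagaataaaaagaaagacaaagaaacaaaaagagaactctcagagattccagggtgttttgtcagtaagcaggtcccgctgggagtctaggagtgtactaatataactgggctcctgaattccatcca

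The Olfr1357 window holds both motifs, that of Olfr374 holds CCCNNGGG and that of Olfr286 holds neither. Olfr1357 averaged 7.63 ± 4.73 in B6, 7.85 ± 3.90 in 129, 14.9 ± 4.23 in SWR and 15.9 ± 5.25 in SJL.

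The level of Olfr124 rested on 2 libraries. This gene (chromosome 17, 37799888 to 37808617) encodes SR1, a receptor known as the most used one of the septal organ, a patch of olfactory epithelium on the nasal septum. It had 517 normalized counts in B6 male replicate 3 and 164 in B6 male replicate 4, and at most 18.8 in the other 30 libraries. The B6 mean was 88.5, and that of the other 6 B6 libraries 4.4 ± 3.51.

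Cnga2, Gnal and Stoml3, the listed markers of olfactory neurons of the main epithelium that were low elsewhere, moved with it. Cnga2 had 134 and 36.2 in these libraries and at most 10.1 in the others. Gnal had 226 and 79.2, against at most 38.6, and Stoml3 228 and 65.8, against at most 25.4. The rest of the list, high in every library, showed no such rise. Cnga4 had 725 and 689, Cngb1 1289 and 1433, Adcy3 621 and 718, and Ano2 2257 and 2346. Rtp1 had 6077 and 6988, Rtp2 2625 and 2893, and Gfy 1072 and 1530. The B6 medians were 700, 1365, 571, 2396, 6104, 2857 and 1271 in that order. The part of other olfactory tissue in these libraries was not tested. Olfr1264 (31.4) and Olfr1509 (27.4) were also highest in B6 male replicate 3, as were Olfr279, Olfr691, Olfr15, Olfr167, Olfr681 and Olfr650-ps1. Without both libraries, Olfr124, Olfr1349, Olfr15, Olfr1264, Olfr1509 and Olfr681 fall under the limit, and 14 other Olfr genes reach it.

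**Figure D4:**
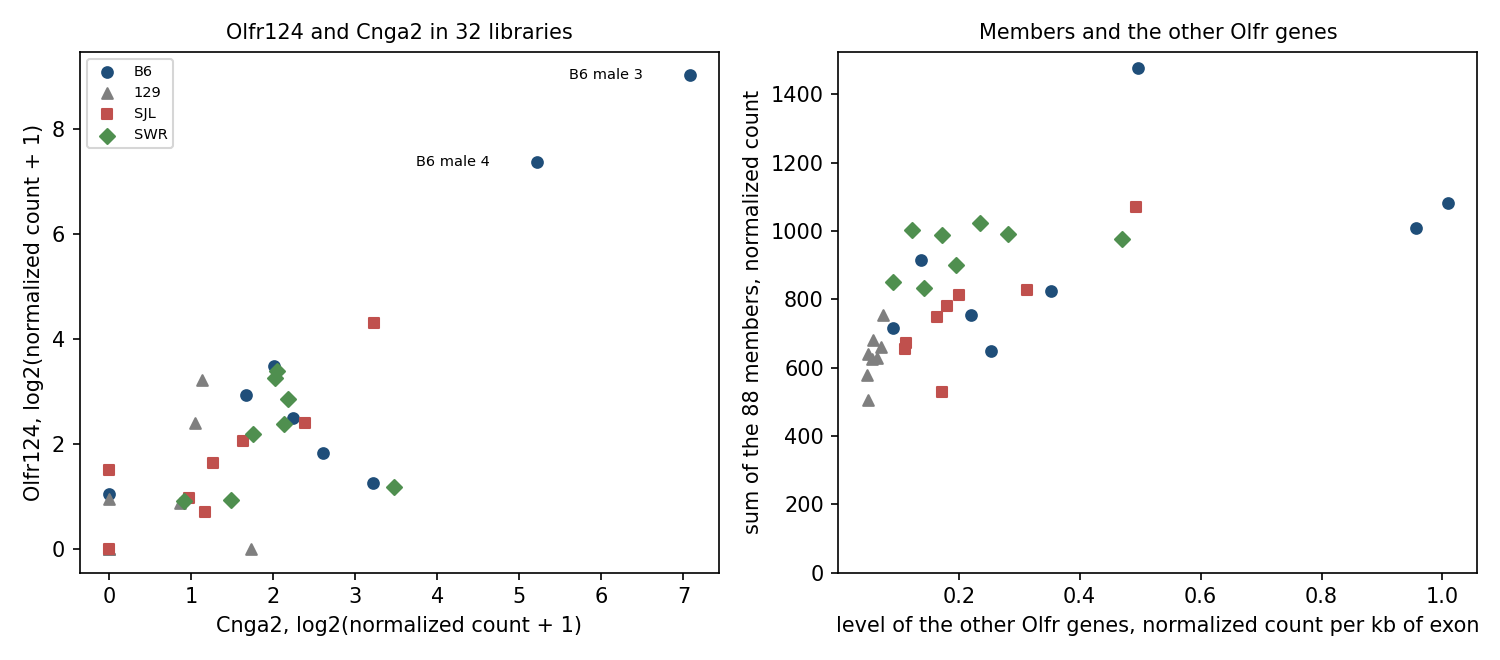
Left, Olfr124 against Cnga2 as log2(normalized count + 1) in 32 libraries, with symbols for strains. Right, the sum of the 88 members against the level of the other Olfr genes per kb of exon. The libraries B6 male 3 and B6 male 4 stand at the top right of the left panel (Olfr124 517 and 164), and 129 libraries lie at the left of the right panel.

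The sexes were compared in the 47 members that passed the filter on low counts; the other 41 were too low to be tested. With strain as a term, no member was called (absolute LFC above 1 and FDR under 0.01), where 0.0381% of all genes were. At an unadjusted p under 0.05, 5 of the 47 (10.6%) passed in edgeR, beside 8.97% of all genes. DESeq2, run without that filter, gave 7 of the 88 members (7.95%), beside 4.21% of all genes with a p. The LFC was positive, that is higher in males, for 27 of the 47, with a median of 0.07, and 46 had an absolute LFC under 1.

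Olfr655 had the smallest p, with 13.3 ± 8.70 (SD, n = 16) in females and 22.4 ± 14.0 in males, an LFC of 0.82 ± 0.20 and an edgeR FDR of 0.0732. DESeq2 gave Olfr655 an LFC of 0.83 and a lower FDR (DESeq2 FDR 0.0406), which also missed both limits of the call. The edgeR LFC of Olfr655 was positive in each strain, from 0.49 in B6 to 1.40 in SWR. Olfr124 had an LFC of 2.75 ± 0.85 (edgeR FDR 0.226), and without B6 male replicate 3 the LFC was 1.76. Olfr308 had 0.66 ± 0.24 (edgeR FDR 0.364). Olfr692 had -0.32 ± 0.14 (edgeR FDR 0.467), and in B6 its females ranged from 98.7 to 119 and its males from 49.7 to 86.6, with an LFC of -0.66 (edgeR FDR 0.423). Olfr1389 in B6 ranged from 23.9 to 36.2 in females and from 45.8 to 56.8 in males, with an LFC of 0.68 (edgeR FDR 0.556). Olfr769 and Olfr1388 did not overlap between the sexes of B6 either, which makes 4 of the 47 tested members (8.51%), beside 3.13% of all genes tested. None of these 4 differences passed the adjusted test.

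**Figure D5:**
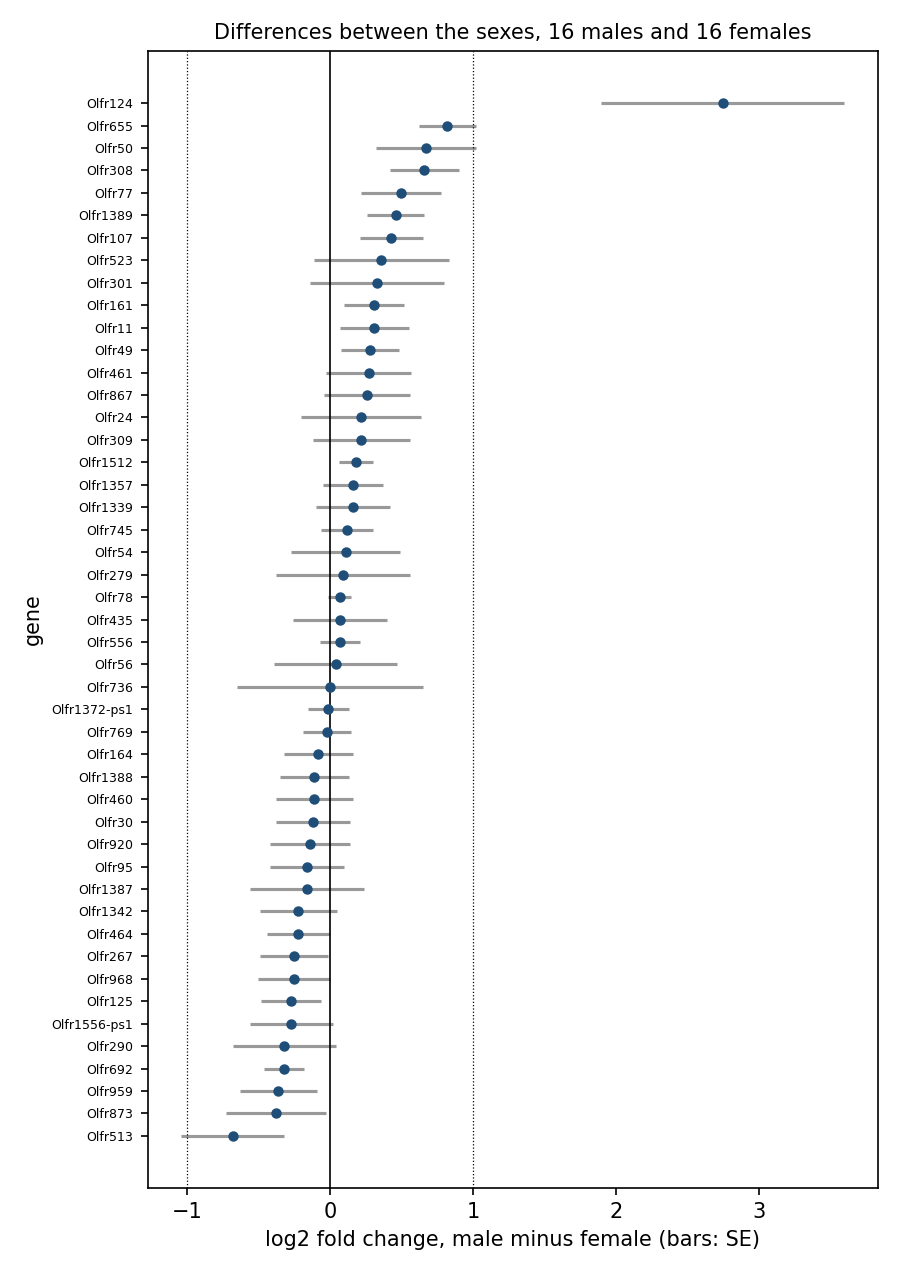
LFC of males minus females for the 47 tested members, ordered by size, with bars of 1 SE and dotted lines at an LFC of 1 either way. Most points lie near 0, and Olfr124 stands apart at 2.75 with a wide bar.

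Within strains, Olfr124 in B6 was the only member called (LFC 6.07, edgeR FDR 0.0115), beside 0.109% of all genes called in at least 1 strain. Olfr124 is a member only through its B6 mean, which rested on B6 male replicates 3 and 4. The call therefore draws on values that the rule used, and it says nothing about the members as a set. Without B6 male replicate 3 this call was lost, as it was without B6 female replicate 1, 2 or 3. The smallest FDR in the other strains was 0.481 in 129, 0.358 in SWR and 0.732 in SJL. No member was called for an interaction of sex and strain in edgeR, where 0.0163% of all genes were, and 5 of the 47 members (10.6%) had an unadjusted p under 0.05, beside 8.94% of all genes. The smallest FDR was 0.434, for Olfr124.

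Genes that carry the odorant signal were compared across strains as a listed pathway. Of 17 genes for receptor export and transduction, 16 were tested and 3 were called in at least 1 pair of strains, where 19.8% of all genes were called. Gnal, the G protein, averaged 57.3 ± 71.0 in B6 and was called higher there than in the other 3 strains, but the other 6 B6 libraries averaged 25.5. Cnga4, a channel subunit, was lower in SWR (503 ± 38.6) than in SJL (1070 ± 109), with an LFC of -1.09. Slc24a4, a sodium calcium exchanger, was higher in SJL (228 ± 32.3) than in B6 (113 ± 16). Cnga2 was too low to be tested. The receptor export protein Rtp1 averaged 6220 to 8680 and was not called in any pair. Of the 11 genes listed for the choice of an odorant receptor, among them Lhx2, Ldb1, Ebf1 and Lbr, all were tested and none was called in any pair of strains in edgeR, beside the same 19.8% of all genes, and none of either list was called between the sexes. Differences below the LFC limit did occur. Lhx2 had an LFC of -0.59 for B6 minus 129 (edgeR FDR 1.05e-08) and Rtp1 0.48 for SJL minus B6 (edgeR FDR 1.07e-09). Of the genes listed for choice, only Ebf4 and Kdm1a had an edgeR FDR above 0.05 in every pair. Trace amine receptors, the Taar genes, summed to 0 in every 129 library and to at most 20.8 in B6, 12.7 in SWR and 5.22 in SJL. The B6 and SWR maxima were in B6 female replicate 2 and SWR female replicate 2, at backgrounds of 39.3 and 19.1 RPM. In contrast, 129 male replicate 1 had a background of 12.8 RPM and a Taar sum of 0. The part of the background in the Taar sums was not tested.

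Overlap with other genes touches few members. For 8 members another annotated gene overlaps on the same strand, among them Olfr1556-ps1, which lies in Ppfia2 (mean 1403 normalized counts) and itself averaged 5.92, and Olfr56, which overlaps Ifi47 (mean 161) and averaged 4.90. Reads of these members cannot be told apart from those of the host genes in the deposited counts. For Olfr78, Olfr1512 and Olfr1372-ps1 the overlapping genes averaged 2.01, 1.13 and 1.59. Only Olfr920 lay within 10 kb downstream of a gene on its strand with a mean of 50 or more, Vwa5a.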

How the data were processed

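The authors placed the reads of ribodepleted, stranded libraries on GRCm38 with STAR and counted uniquely placed reads on the reverse strand per gene of an Ensembl annotation. The deposited counts were used for tests, and the deposited normalized signal, which the authors made by dividing counts by DESeq2 size factors, for levels. Genes were joined by identifier to GENCODE M21, which has the same build.

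Tests were run with edgeR 4.0.16 in R 4.3.3 (TMM, filterByExpr over 8 groups of strain and sex, quasi-likelihood F test, FDR over 18382 genes), and DESeq2 1.42.0 was an alternative. Sex was tested with strain as a term and strains in each pair with sex as a term. The SE of an LFC was taken from its size and the square root of its F statistic. Steps were tested on simulated data. The members and lists were chosen with earlier results of these data known.

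Genes were named by a rule: the 10 highest members, the 10 with the largest called strain difference, 10 with the largest difference among the others, those with the smallest sex p, genes the study names, genes near the limit, and members lacking reads in a strain or overlapping a gene. Others are named where a count of 5 or fewer asked for it or after their values were seen.

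The lane number in the library descriptions served as replicate number. Libraries of a group differed beyond sampling noise (chi-square per degree of freedom 2.71 to 48.1 over 48 pairs), so none was counted as a duplicate. The labels do not say more than that each library came from 1 mouse.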

Additional observations from a re-analysis of the deposited data

Results flagged for a closer look

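Some values stand far from the other 7 libraries of their strain by Dixon's test. Of 123 groups of 8 libraries looked at over the 32 named members, 15 held such a library, where chance gives about 5% for normal values. Many of these counts are low, so the 5% is only a rough guide. Some flagged values rest on 4 or 5 reads, such as Olfr30 in 129 and Olfr374 in SWR below. Olfr1512 had 115 normalized counts in SWR male replicate 1, against 44.4 to 77.0 in the others. Olfr1372-ps1 had 71.0 normalized counts in B6 male replicate 3, against 19.3 to 42.9 in the others. Olfr124 had 517 normalized counts in B6 male replicate 3, against 1.07 to 164 in the others. Olfr124 had 18.8 normalized counts in SJL male replicate 4, against 0 to 4.26 in the others. Olfr769 had 5.81 normalized counts in 129 female replicate 1, against 14.8 to 17.8 in the others.

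Olfr49 had 17.5 normalized counts in 129 male replicate 2, against 5.77 to 9.96 in the others. Olfr30 had 4.77 normalized counts in 129 male replicate 3, against 0 to 2.25 in the others. Olfr1033 had 0 normalized counts in B6 female replicate 4, against 3.81 to 7.10 in the others. Olfr1116 had 8.48 normalized counts in SJL male replicate 1, against 0 to 3.16 in the others. Olfr374 had 26.3 normalized counts in B6 female replicate 4, against 1.07 to 6.09 in the others. Olfr374 had 6.34 normalized counts in SWR female replicate 2, against 0 to 1.54 in the others. Olfr1264 had 31.4 normalized counts in B6 male replicate 3, against 0 to 8.33 in the others. Olfr1264 had 7.77 normalized counts in SJL male replicate 1, against 0 to 2.84 in the others. Olfr1264 had 5.07 normalized counts in SWR female replicate 2, against 0 to 1.80 in the others. Olfr1556-ps1 had 16.7 normalized counts in B6 female replicate 2, against 3.20 to 7.45 in the others. The cause of these values was not tested.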

How the results depend on the processing

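Depth limits these results, since 45 members average under 5 normalized counts, 41 could not be tested, and a value in the shallowest library rests on few reads. The number of members depended on the limit, with 197 at a limit of 3 and 37 at a limit of 10 in place of 88, while the median in place of the mean gave 72. Leaving out each library in turn gave 79 (without B6 female replicate 2) to 97 members, and 68 members stayed in all cases. Without both B6 male replicates 3 and 4, an alternative chosen after seeing the data, there were 96. Without both B6 female replicates 2 and 4, likewise chosen after seeing the data, there were 75, all of them among the 88, and 17 members were called between strains, 16 of them the same.

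The 17 members called between strains were 16 to 18 on leaving out each library, 16 with the library background as a term, 15 without B6 female replicate 1 and 129 male replicate 1 together, and the same 17 genes in DESeq2. With the replicate number as a block the counts were 17 between strains, 1 within a strain, 0 between the sexes and 0 for the interaction, and the 17 were the same genes. Same-numbered libraries did not deviate together on average (112 pairs, correlation -0.29 to 0.48, mean -0.00, 22 pairs over 0.1), so the numbers were not taken as pairing the samples. This mean cannot show that libraries of a lane share nothing. With no filter on low counts, 1 member was called for the interaction. The call within a strain, Olfr124 in B6, ranged from 0 to 1 on leaving out each library (0 without B6 female replicate 1, 2 or 3 or B6 male replicate 3) and was 0 without B6 male replicates 3 and 4 together. All 520 alternative values of the LFC of the 13 named differences kept their direction and their call. The strain differences among them were chosen as the largest called, so this was largely fixed by the choice. The differences between the sexes were not called in any case. Sizes could move, as for Olfr124 between the sexes, with an LFC of 2.75 in edgeR and 1.59 in DESeq2.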
